A study of Mus musculus with 6 samples.

Results

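Tnfrsf9, Tnfrsf18, Tnfrsf8, Cd28 and Icos encode costimulatory receptors of lymphocytes, and their transcripts were followed in mouse natural killer (NK) cells exposed to oleic acid (OA). The genes were chosen by name, 5 of the 559 genes in the deposited table, and each name matched 1 row. The cells were NK cells purified from C57BL/6 mouse spleen. Of the 6 RNA-seq libraries, the 3 control libraries came from cells kept for 36 h without OA and the 3 OA libraries from cells exposed to 0.2 mM OA, a monounsaturated fatty acid, for the same time. The study asked how transcription in NK cells differs after OA, and the labels state that the treatment was carried out once. The labels do not say whether the replicates came from separate mice or cultures, so p-values measure only the spread between these libraries.

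The 3 TNF receptor family members are single-pass membrane receptors that bind ligands of the TNF family and recruit TRAF adaptors, which lead to NF-kB and to survival genes. Tnfrsf9 encodes 4-1BB (CD137), Tnfrsf18 encodes GITR and Tnfrsf8 encodes CD30. Cd28 and Icos encode immunoglobulin-type receptors of one family that bind B7 ligands on other cells and recruit phosphoinositide 3-kinase. These receptors are best known from T cells, and 4-1BB and GITR also appear on activated NK cells.

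In RefSeq on GRCm38.p6 (the mm10 build), the 3 TNF receptor genes lie on chromosome 4 and the other two on chromosome 1. Tnfrsf8 is at chr4:145267132-145315164 on the minus strand. Tnfrsf9 is at chr4:150920155-150946104 and Tnfrsf18 at chr4:156026322-156028894, both on the plus strand. These 3 are not neighbours: 71 protein-coding genes separate Tnfrsf8 from Tnfrsf9, and 84 separate Tnfrsf9 from Tnfrsf18. Cd28, at chr1:60746388-60773359, and Icos, at chr1:60960773-61000322, are 187.4 kb apart on the plus strand with 1 protein-coding gene between them, Ctla4, which encodes an inhibitory receptor of the same family. Ctla4 was not listed, and neither was Tnfrsf4 (OX40), which ends 9.7 kb before Tnfrsf18; a gene that is not listed has no value here, which does not mean that it did not change.

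The sequences before the transcription starts are shown as a description. They were searched for motifs of NF-kB, AP-1 and NFAT, which are transcription factors of lymphocyte activation. Any part of these factors in the fall of the receptors was not tested. RefSeq promoter entries on GRCm38.p6 matched 3 of the 5 genes, with 2 starts for Tnfrsf9. The 250 bases before each start were searched on both strands for an NF-kB motif (GGGNNTTTCC), an AP-1 motif (TGANTCA) and an NFAT motif (TGGAAA), which do not overlap in the matches found. Capitals mark the matches. The first start of Tnfrsf9 (chr4:150919905-150920154, plus strand) held the NFAT letters, and Tnfrsf8 (chr4:145315165-145315414, minus strand) held the AP-1 letters.
Tnfrsf9, first start: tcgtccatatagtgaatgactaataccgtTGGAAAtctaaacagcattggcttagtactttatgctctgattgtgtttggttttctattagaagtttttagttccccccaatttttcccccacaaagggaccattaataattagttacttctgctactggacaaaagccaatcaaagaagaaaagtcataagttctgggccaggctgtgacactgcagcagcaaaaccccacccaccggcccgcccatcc
Tnfrsf8: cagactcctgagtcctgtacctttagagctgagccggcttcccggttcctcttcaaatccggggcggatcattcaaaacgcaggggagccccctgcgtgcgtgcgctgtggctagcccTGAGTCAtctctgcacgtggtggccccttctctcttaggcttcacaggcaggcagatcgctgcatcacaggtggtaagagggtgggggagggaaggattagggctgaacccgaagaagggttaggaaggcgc
The second start of Tnfrsf9 held an NF-kB and an AP-1 match, shown as 30-base stretches (chr4:150927946-150927975 and chr4:150927969-150927998, plus strand). Both lie in a stretch that GENCODE M21 annotates as untranslated sequence of another Tnfrsf9 transcript.
Tnfrsf9, second start, NF-kB match: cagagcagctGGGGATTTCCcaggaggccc
Tnfrsf9, second start, AP-1 match: gaggccctgctcagtTGAGTCAcaggtcct
The window of Tnfrsf18 held no match to these letters. Of 32851 promoter windows of the same length, 1.41% held the NF-kB motif, 6.75% the AP-1 motif and 18.6% the NFAT motif. A match is a description of letters and shows neither binding nor use, and the table's TPM values do not say which start was used.

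Levels are given as TPM, an abundance scaled within each library and per transcript length, so that genes can be set side by side. Tnfrsf9 was the most abundant of the 5 receptors, ranking 87 of the 559 listed genes by mean TPM. Icos ranked 126 and Tnfrsf18 ranked 172, while Tnfrsf8 and Cd28 stood far lower, at ranks 386 and 394. The order Tnfrsf9, Icos, Tnfrsf18 was the same in all 6 libraries. Tnfrsf8 and Cd28 did not differ beyond their spread: Tnfrsf8 had the higher TPM in 4 libraries and Cd28 in control replicate 2 (33.58 against 32.54 TPM) and OA replicate 3 (21.17 against 19.59 TPM). Together the 5 transcripts summed to between 823.48 and 922.62 TPM in the control libraries and between 602.2 and 741.91 TPM in the OA libraries.

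All 5 receptor transcripts were lower after OA. The median log2 fold change was −0.38, against 0.14 over the 559 listed genes. Over the 472 genes with a mean of at least 10 TPM, as all 5 receptors had, it was −0.17. On the log2(TPM + 1) scale, limma called 5 of 5 lower at a Benjamini-Hochberg adjusted p under 0.05, taken over the 559 genes. Of the listed genes, 40.1% were called lower and 36% higher on the same test. The table holds only genes with an authors' Q value under 0.05 (the largest is 0.0499), so the genes were already selected for a difference in these libraries. Per the authors' deposited table, 48.7% of its genes had a negative fold change. The fall of the 5 genes is therefore not independent evidence of a change. Measured against the listed NK cell markers, the difference was above 0 for 4 of the 5 genes, as described below. For 2 of them the groups did not overlap. These 11 of 18 NK markers passed the same selection and all fell in the same libraries, and markers not listed have no value here. The subtracted mean may therefore lie too low, which would raise these differences. Their sign is thus not evidence about the receptors. In bulk RNA, fewer cells of a type and less RNA per cell cannot be told apart.

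Tnfrsf9 had 370.44, 368.38 and 406.84 TPM in control replicates 1, 2 and 3 and 334.79, 308.41 and 269.2 TPM in OA replicates 1, 2 and 3, the order used for each gene here. Every OA library lay below every control library. The mean dropped from 382 ± 21.6 in control to 304 ± 33.0 TPM in OA (SD, n = 3 per group), a log2 fold change of −0.33 (SE 0.0977, adjusted p = 0.0333, limma).

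For Tnfrsf18 the control values were 160.49, 160.79 and 181.75 TPM and the OA values 139.42, 125.85 and 119.52 TPM. The groups did not overlap. The mean dropped from 168 ± 12.2 in control to 128 ± 10.2 TPM in OA (SD, n = 3 per group), a log2 fold change of −0.38 (SE 0.0861, adjusted p = 0.026, limma), the smallest adjusted p of the 5.

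The control libraries held 33.28, 32.54 and 42.54 TPM of Tnfrsf8, and the OA libraries held 28, 27.19 and 19.59 TPM. Control replicate 3 and OA replicate 3 stood apart from the others of their groups, in opposite directions. The mean dropped from 36.1 ± 5.57 in control to 24.9 ± 4.64 TPM in OA (SD, n = 3 per group), the largest fold change of the 5 and the one with the largest standard error (log2 −0.52, SE 0.177, adjusted p = 0.0432, limma).

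Cd28 transcripts measured 29.38, 33.58 and 31.81 TPM without OA and 25.31, 24.89 and 21.17 TPM with it. It was the one gene of the 5 whose highest control value was in replicate 2. The mean dropped from 31.6 ± 2.11 in control to 23.8 ± 2.28 TPM in OA (SD, n = 3 per group; log2 −0.40, SE 0.0923, adjusted p = 0.0274, limma).

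Icos was present at 229.89, 234.92 and 259.68 TPM in the controls, against 214.39, 203.42 and 172.72 TPM after OA. OA replicate 1 lay nearest to the controls, and the groups did not overlap. The mean dropped from 241 ± 15.9 in control to 197 ± 21.6 TPM in OA (SD, n = 3 per group), to 0.815 of the control level, the smallest change of the 5 (log2 −0.30, SE 0.102, adjusted p = 0.0445, limma).

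**Figure D1:**
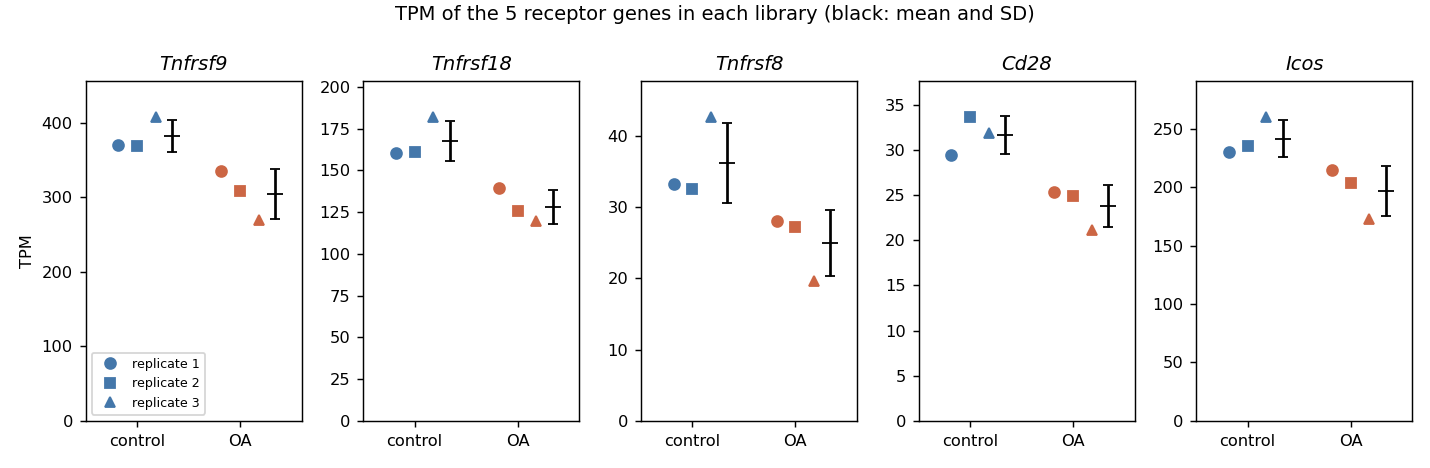
TPM of the 5 receptor genes in each library, with one panel per gene, its own axis from 0, and the group mean and SD (n = 3) in black. The OA libraries lie below the control libraries in each panel, and OA replicate 3 is the lowest point of each.

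The OA and control libraries did not overlap for 5 of the 5 genes. Over the table, 48.5% of the genes were without overlap and lower in OA, and 45.1% were without overlap and higher. Per the authors' deposited table, the log2 fold changes were −0.32 for Tnfrsf9, −0.37 for Tnfrsf18, −0.53 for Tnfrsf8, −0.40 for Cd28 and −0.29 for Icos. The authors' Q values in that table were 0.000385, 0.000707, 0.031, 0.000601 and 0.00297 in the same order. Among the 272 listed genes with a lower mean in OA, the median log2 fold change was −0.29. The change of Icos was larger than that of 51.1% of those genes and the change of Tnfrsf8 larger than that of 87.5%.

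The difference was smaller without the replicate 3 libraries. OA replicate 3 was the lowest OA library for 5 of the 5 genes, and control replicate 3 was the highest control library for 4 of the 5. The same held for 96.7% (OA) and 90.4% (control) of the 272 genes with a lower mean in OA, so the receptors shared this with most of those genes. Without replicate 3 of both groups, the log2 fold change was −0.20 for Tnfrsf9, −0.28 for Tnfrsf18, −0.25 for Tnfrsf8, −0.31 for Cd28 and −0.15 for Icos. In that fit limma still called 5 of the 5 lower, and 34.2% of the listed genes.

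The call depended on single libraries. With OA replicate 1 left out limma called 5 of the 5 lower, beside 33.5% of the listed genes. With OA replicate 3 left out it called 3, leaving out Tnfrsf8 and Icos, beside 24.7% of the listed genes. It called 0 of the 5 without control replicate 1 (3 at an unadjusted p under 0.05), 0 without control replicate 2 (4 unadjusted; 2.33% of the listed genes were called lower), 0 without control replicate 3 (2 unadjusted; 5.37%) and 0 without OA replicate 2 (4 unadjusted). In limma 0 of the 559 genes were called without control replicate 1 (168 lower and 171 higher unadjusted), and 0 without OA replicate 2 (168 and 159 unadjusted). The adjusted p-values of the 5 genes over these 6 fits ran from 0.0366 to 0.11, and the fold change was below 0 in each. With the libraries scaled to equal medians, 2 of the 5 were called, Tnfrsf18 and Cd28 (4 at an unadjusted p under 0.05), beside 14.7% of the listed genes. Under that scaling lower genes made up 33.6% of the calls over the table, against 52.7% with the values as deposited.

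**Figure D2:**
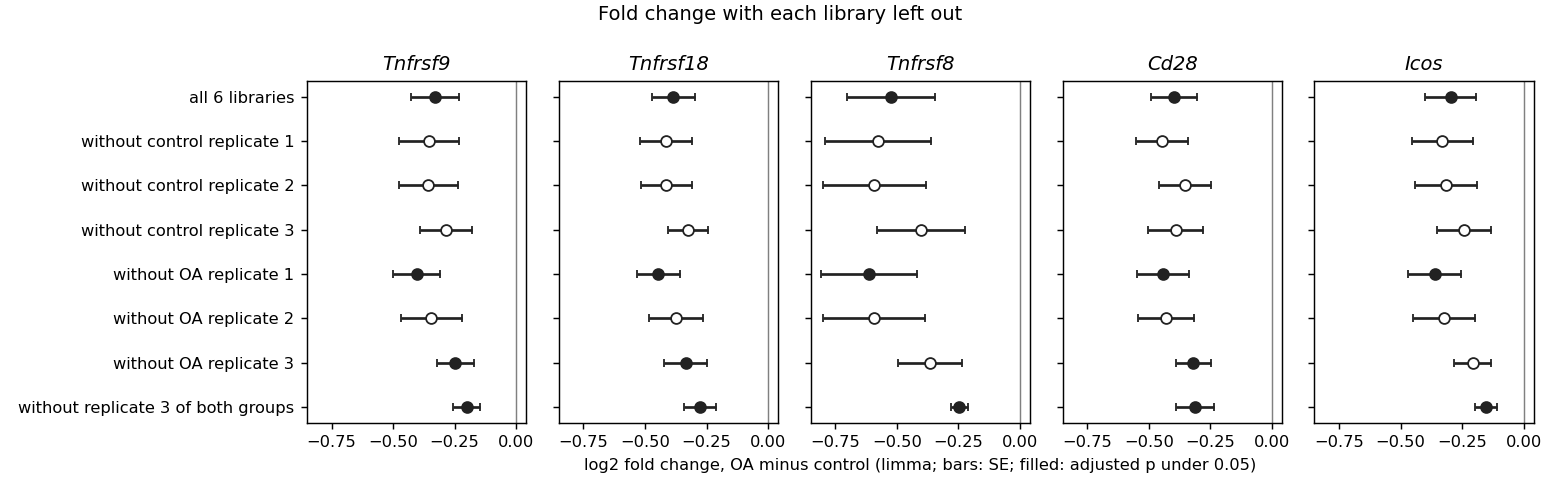
Log2 fold change of each receptor gene (OA minus control, limma) with all 6 libraries and with libraries left out. Bars are standard errors, and filled points have an adjusted p under 0.05. All points lie below 0, and filled points appear in the rows with all libraries, without OA replicate 1, without replicate 3 of both groups and, for 3 of the genes, without OA replicate 3.

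Within the summed TPM of the 5 receptors, the proportions of the genes were close in the groups. Tnfrsf9 made up 44.5% of the sum in control and 44.8% in OA, Icos 28.1% and 29.02%, Tnfrsf18 19.5% and 19.0%, Tnfrsf8 4.19% and 3.66%, and Cd28 3.69% and 3.51%. To compare their changes, the log2 ratio of each pair of genes was taken within each library and set between the groups by a two-sided exact permutation test, over 10 pairs. With 3 libraries against 3, the smallest p this test can give is 0.1, and 3 pairs reached it (adjusted p = 0.333 for each). The ratio of Tnfrsf9 to Tnfrsf8 went from 3.41 ± 0.134 to 3.62 ± 0.143 (log2, SD, n = 3 per group; exact permutation p = 0.1). The ratio of Tnfrsf8 to Icos went from −2.75 ± 0.125 to −2.99 ± 0.128, and that of Tnfrsf9 to Icos from 0.66 ± 0.0231 to 0.63 ± 0.0239. The other 7 pairs overlapped between the groups. Because of its smallest possible p, this test could not show a different size of change for any pair at an adjusted p under 0.05. The number of pairs without overlap was 6 without OA replicate 3 and 5 without control replicate 2.

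Of the 28 genes fixed as TNF receptor family members, 5 were listed: the 3 receptors above, which fell, and Tnfrsf13b and Tnfrsf13c, which rose. Tnfrsf13b (TACI) and Tnfrsf13c (the BAFF receptor) are B cell receptors for BAFF-type ligands. Tnfrsf13b measured 39.98, 43.95 and 36.57 TPM in control, and 51.59, 51.15 and 54.18 TPM in OA (log2 0.38, SE 0.0795, adjusted p = 0.026, limma). Tnfrsf13c stood at 31.65, 34.46 and 22.09 TPM and at 42.39, 45.04 and 48.55 TPM (log2 0.63, SE 0.176, adjusted p = 0.0314, limma). The listed receptors of the family thus divided by direction. The groups did not overlap for any of the 5, a trait of most listed genes (48.5% lower in OA and 45.1% higher). Of the 11 B cell markers used, 5 were listed, of which Cd79a, Ly6d, Mzb1 and Spib rose and Pax5 did not pass (adjusted p = 0.06, limma). Their summed TPM went from between 293.89 and 366.23 in control to between 460.93 and 538.9 in OA. The part of B cells in the values of Tnfrsf13b and Tnfrsf13c was not tested. Without control replicate 2, and without OA replicate 3, limma called 1 of these 2 genes higher, and without control replicate 1 or OA replicate 2 it called 0 (2 unadjusted in each).

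The ligands of the 5 receptors (Tnfsf9, Tnfsf18, Tnfsf8, Cd80, Cd86 and Icosl) were not listed. Of 18 TNF family ligand genes, 4 were listed, of which 3 fell and 1 rose. Lta (lymphotoxin alpha) fell to 0.638, Tnfsf10 (the death ligand TRAIL) to 0.689 and Ltb (lymphotoxin beta) to 0.854 of the control level, while Tnf rose 1.14-fold. Of the 13 genes of the CD28 family and its B7 ligands, 2 were listed, Cd28 and Icos themselves.

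Downstream of the receptors, 2 of 27 TRAF and NF-kB genes were listed. Traf4, a TRAF family gene, fell from 26.7 ± 1.63 in control to 21.6 ± 1.23 TPM in OA (SD, n = 3 per group; adjusted p = 0.0276, limma). Nfkbiz, which encodes an inhibitor-like nuclear regulator of NF-kB and is induced by inflammatory signals, rose from 112 ± 4.79 to 133 ± 1.80 TPM (adjusted p = 0.026, limma). Without control replicate 1 or OA replicate 2, limma called 0 of these 2 genes (1 lower and 1 higher unadjusted). Without control replicate 2 or 3 it called only Nfkbiz. Of 24 genes of CD28 and ICOS proximal signalling, 4 were listed and 4 fell. With all libraries limma called these 4 lower, beside 40.1% of the listed genes. Whether their fall has to do with the receptors was not tested. Pik3cd, the delta catalytic subunit of phosphoinositide 3-kinase, fell to 0.855 of the control level. The kinase genes Lck, Fyn and Zap70 fell to 0.829, 0.848 and 0.830. The median log2 fold change of the 4 was −0.25, and with the libraries scaled to equal medians limma called 0 of them (2 unadjusted). It also called 0 of the 4 without any 1 of the control replicates or without OA replicate 2 (1 to 3 unadjusted), and 1 without OA replicate 3. Of the 4 TNF ligand genes it called 0 with control replicate 1 or 2 left out or OA replicate 2 left out (3 or 4 unadjusted), 1 without control replicate 3, and 2 with equal medians; Tnf was also lost without OA replicate 1.

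**Figure D3:**
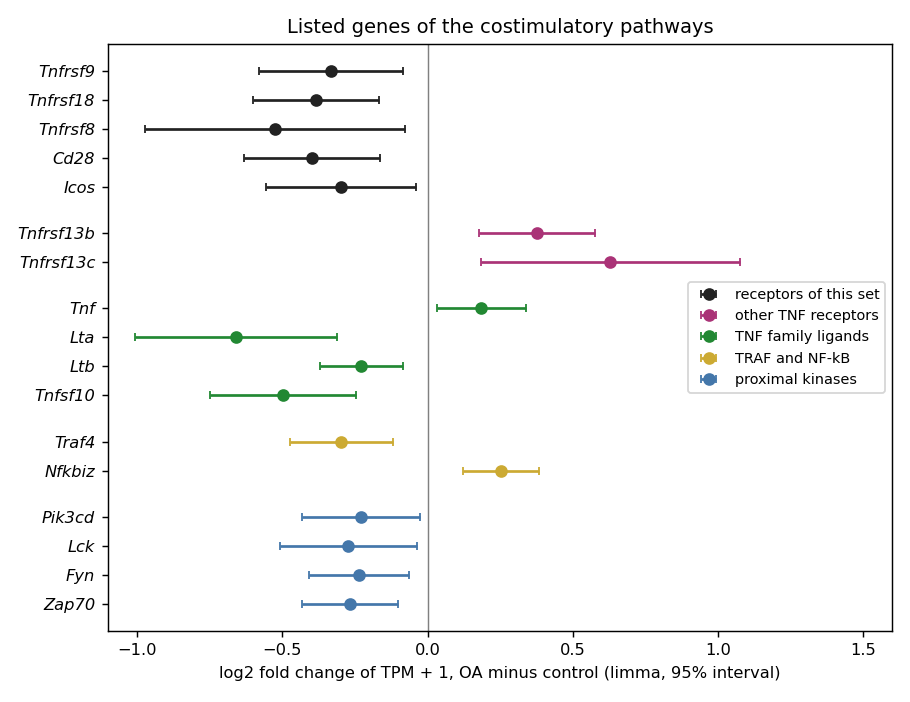
Log2 fold change of TPM + 1 (OA minus control, limma, 95% interval) for the 5 receptors and the other listed genes of their pathways, coloured by role. The 5 receptors, 3 ligands, Traf4 and the 4 kinase genes lie below 0, and Tnfrsf13b, Tnfrsf13c, Tnf and Nfkbiz lie above 0.

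The labelled cell type was set beside markers, and the purity of the cells was not tested. For comparison, limma called 40.1% of the listed genes lower and 36% higher with all 6 libraries. Of 18 NK cell markers, 11 were listed, among them Ncr1 at 131 ± 7.42 TPM and Klrd1 at 131 ± 7.72 TPM in control (SD, n = 3 per group), and 11 of 11 fell, of which limma called 0 without any 1 of the control replicates or without OA replicate 2 (7 to 11 unadjusted). Their summed TPM went from between 4345.71 and 5194.35 in control to between 2850.81 and 3665.36 in OA. Of 18 T cell markers, which were fixed because T cells are the best known source of Cd28 and Icos, 1 was listed. It is Thy1, which NK cells and innate lymphoid cells also express, and it fell from 830.4 ± 33.3 to 621 ± 67.1 TPM (adjusted p = 0.026, limma). Of 14 innate lymphoid markers 4 were listed, 3 lower (Il13, Kit and Cxcr6) and 1 higher (Arg1, which macrophages also express), and their summed TPM went from between 828.57 and 867.65 to between 753.67 and 804.32. Of 10 basophil and mast cell markers 2 were listed and both fell, from a sum of between 126.47 and 132.63 to one of between 83.01 and 102.44 TPM. Of 22 myeloid and dendritic cell markers 8 were listed, 7 higher (among them Cd14, Il1b and Mmp12) and 1 lower (Ly6c2), with summed TPM from between 4484.94 and 4961.23 to between 5503.11 and 5791.02. The control means of these 8 ran from 2.85 TPM (Mmp9) to 3246 TPM (Il1b), with Cd14 at 447 TPM, above Ncr1 and Klrd1. The B cell marker Cd79a stood at 112 TPM in control. Markers of other cells were thus present in the control libraries beside the NK markers. Of the listed T cell, innate lymphoid, basophil and mast cell, myeloid and B cell markers, limma called 0 without control replicate 1 or OA replicate 2. It called 0 of the 559 genes in those fits. The part of any of these cells in the fall of the 5 receptors was not tested.

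The receptors were also set against the listed NK markers, whose log2 fold changes ran from −0.67 (Gzma) to −0.35 (Il2rb). The mean log2(TPM + 1) of the 11 NK markers went from 7.69 ± 0.121 to 7.25 ± 0.179 (SD, n = 3 per group), a difference of −0.44. With this mean subtracted in each library, a measure chosen after the values were seen, Icos was higher in OA by 0.15 and Tnfrsf9 by 0.11, with no overlap between the groups (two-sided exact permutation p = 0.1 for each, the smallest possible). Tnfrsf18 (0.06), Cd28 (0.05) and Tnfrsf8 (−0.08) overlapped between the groups (exact permutation p of 0.5, 0.7 and 0.6). Relative to the NK markers, Icos stood at 0.20, 0.28 and 0.19 in the control libraries and at 0.36, 0.37 and 0.39 in the OA libraries. Tnfrsf9 lay between 0.84 and 0.93 in the control libraries and between 0.96 and 1.03 in the OA libraries. The NK markers in the table are themselves genes selected for a difference between the groups, and all 11 fell. NK markers that were not listed have no value here, so the subtracted mean may be too low and the differences too high. This measure therefore cannot show whether the receptors changed relative to NK cells.

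**Figure D4:**
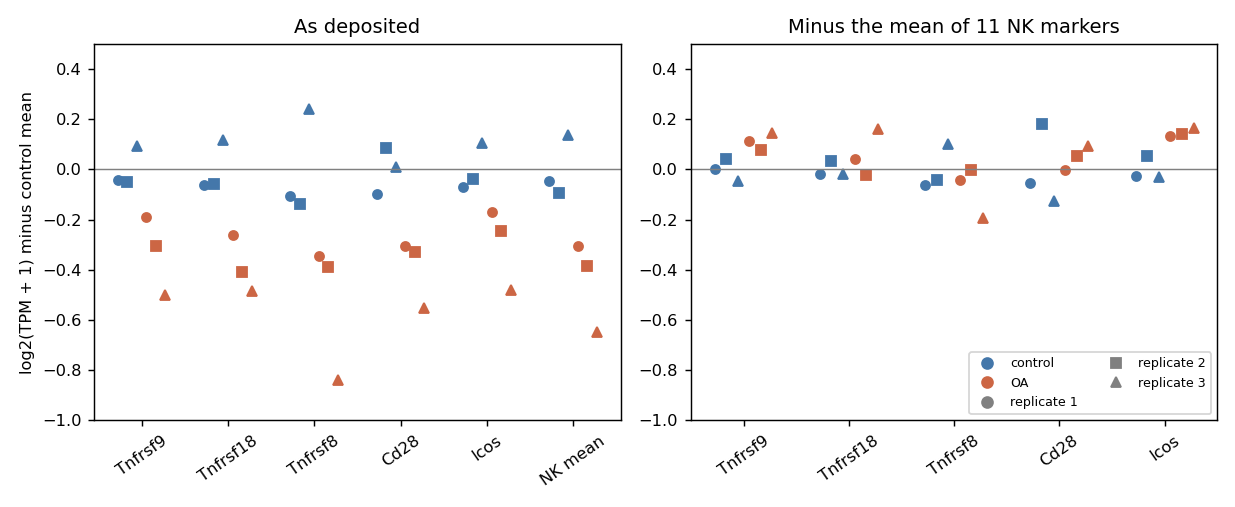
Log2(TPM + 1) of each receptor gene in each library, as the difference from the control mean, with the values as deposited (left, with the mean of the 11 listed NK markers) and after subtracting that NK marker mean in each library (right). On the left the OA libraries lie below the control libraries; on the right Tnfrsf9 and Icos lie above them in OA and the other 3 genes overlap.

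The genes nearest in pattern to each receptor were found by the root mean square difference of log2(TPM + 1) over the 6 libraries. Each gene was centred on its control mean. Genes whose symbol is a Gm number, a LOC number or a Rik name were left out of this search. Nearest to Tnfrsf9 were Cdc6, a DNA replication licensing gene, at 0.00967, Glipr2 at 0.0106 and Il2rb, the beta chain of the IL-2 and IL-15 receptors, at 0.0218. Nearest to Icos were Tarm1 at 0.0229, Cdc6 at 0.0257 and Ube2l6, a conjugating enzyme for ISG15, at 0.027. Cdc6 thus stood among the 3 nearest genes of both. Nearest to Tnfrsf18 were Gprin3 at 0.0345, the stress gene Gadd45g at 0.0348 and Csf2, the gene of the cytokine GM-CSF, at 0.0351. Nearest to Tnfrsf8 were the NK receptor gene Klrb1f at 0.0376, Il12rb2, a chain of the IL-12 receptor, at 0.0535 and the interferon-induced gene Oas3 at 0.0575. Nearest to Cd28 were the sugar transporter gene Slc2a6 at 0.0442, S100a4 at 0.047 and Slc24a3 at 0.0544. The smaller the value, the more alike the pattern. Among the genes searched, Tnfrsf9 and Icos had closer companions than Tnfrsf8 and Cd28, which were also the least abundant of the 5.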

How the data were processed

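RNA from 6 libraries (3 control, 3 OA) was analysed from the one deposited table. The submitters' processing notes list Bowtie2, RSEM 1.3.1, DESeq2 1.4.5 and mm10, with no roles; annotation and filters are not given in the sources used here. Per the file headers, the authors deposited TPM for each library and mean TPM per group. Per the file headers, the authors also gave a log2 fold change and P and Q values (p-values). TPM keeps no read numbers, so depth and counting error are unknown, and a change in other transcripts shifts it.

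For the present values, limma 3.58.1 (R 4.3.3) was fitted to log2(TPM + 1) of the 559 genes without filter or covariate, two-sided, called at Benjamini-Hochberg adjusted p under 0.05; this scale understates changes of low genes. The fit was tested on simulated data. Columns were matched to samples by title and groups taken from the treatment label. No 2 libraries of the same group were identical (at most 14 equal TPM values). The 5 genes, the lists and the motifs were chosen with earlier results of these data or the sequences known. Named genes were the 5 receptors, listed members of 11 gene lists (all where at most 6 were listed, otherwise those with the smallest adjusted p; markers only by example), and the 3 nearest genes of each receptor. A further marker gene of these lists was not analysed here. Alternatives were other pseudocounts, a level filter, equal medians, a replicate block, a trended robust prior, a stricter threshold and libraries left out. Python 3.11.15, pandas 2.3.3 and scipy 1.17.1 were used, with RefSeq GRCm38.p6 and GENCODE M21 for positions.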

Additional observations from a re-analysis of the deposited data

How the results depend on the processing

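The log2 fold changes of the 5 receptor genes were below 0 in 65 of 65 alternative values. The absence of overlap between the groups fixes this for libraries left out and for other pseudocounts. The level filter, the replicate block and the trended robust prior leave the fold change itself unchanged. Only the equal medians could have turned the sign, so the count adds little. Pseudocounts of 0.1 and 5, a minimum mean of 10 TPM and a trended robust prior left 5 of 5 called by limma. Over the 559 genes, 224 were called lower with pseudocount 0.1, 242 with pseudocount 5 and 259 with the robust prior. With the minimum mean, 245 of 472 genes were called lower. At an adjusted p under 0.01 limma called 0 of the 5, whose smallest adjusted p was 0.026. The B cell marker Mzb1 had the same adjusted p of 0.026 from a far smaller unadjusted p (0.000614, limma). The share of listed genes under 0.01 is not given here, so this 0 is not a result about the receptors. At an unadjusted p under 0.05 in limma 5 of 5 were lower, beside 252 of the 559 genes. With equal medians 2 were called, beside 14.7% of the listed genes. These medians were those of the 559 listed genes. Tnfrsf9 (−0.34), Tnfrsf8 (−0.53) and Icos (−0.31) were not called. Their fold changes were no smaller than with the values as deposited, while their standard errors were larger. The standard error went from 0.0977 to 0.121 for Tnfrsf9, from 0.177 to 0.197 for Tnfrsf8 and from 0.102 to 0.124 for Icos. Why the spread was larger was not tested. With the replicate number as a block limma called 0 of the 5 (2 at an unadjusted p under 0.05) and 0 of the 559 genes (89 lower and 149 higher unadjusted), with unchanged fold changes of −0.33 (Tnfrsf9), −0.38 (Tnfrsf18), −0.52 (Tnfrsf8), −0.40 (Cd28) and −0.30 (Icos). The block costs residual degrees of freedom, and the samples share only a number: deviations of same-numbered libraries correlated at 0.33, −0.11 and −0.08 across genes, and control replicate 2 correlated best with OA replicate 3 (0.35).

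Leaving out 1 library at a time gave between 0 and 5 called genes. The fold changes ran from −0.40 to −0.25 (Tnfrsf9), −0.45 to −0.33 (Tnfrsf18), −0.61 to −0.37 (Tnfrsf8), −0.45 to −0.32 (Cd28) and −0.36 to −0.21 (Icos). The number of gene pairs whose ratio did not overlap, 3 with all libraries, ran from 3 to 6, and was 6 without replicate 3 of both groups; with fewer libraries, groups separate more easily. Depth is unknown from TPM, so its part in the spread of any of the 5 genes was not tested.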
